A study of Gallus gallus with 3 samples.

Results

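The genes of DNA replication and the histone genes that were measured as single-cell RNA in the developing chicken hindlimb comprise 32 of the 11442 genes in the deposited tables. They were chosen by symbol alone, from the gene names paired with Ensembl identifiers in the study's additional files: helicase, origin, clamp, clamp loader, polymerase, nucleotide and chromatin-copying genes, and genes with a histone prefix. Of 34 symbols that met these prefixes, *H2AFZ* and *RFC1* were left out, since they lie on the study's co-expression module sheets, of which 10 of 16 were held. The symbols come from lists of genes enriched in sub-clusters of these same cells, so a difference between sub-clusters describes the members and is no independent evidence. By role, 25 genes belong to the replication machinery, 3 are linker histones and 4 are core histones.

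Cells came from the distal hindlimb (autopod) of chicken embryos at Hamburger-Hamilton stages HH25, HH29 and HH31, with 1 library per stage and no treatment or mutation. The HH25 library held the whole autopod and the HH31 library the tip of digit 4, both made with the 10x droplet system. The HH29 library held digits 3 and 4 with the interdigit mesenchyme next to them. It was made by DropSeq, another droplet method, as 3 technical replicates. Strain and number of embryos are not given in the sources used here. Stage cannot be told apart from platform and dissection, so populations are compared within a library.

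DNA is copied once per cell cycle, in S phase. The origin recognition complex marks where copying may begin and loads the ring of MCM proteins, which becomes the helicase when CDC45 and the GINS complex join it. A clamp loader (RFC) places the ring-shaped clamp PCNA on DNA, RPA coats exposed strands, DNA polymerases copy them, and ribonucleotide reductase, TYMS and DUT supply nucleotides. New DNA is packed on core histones, and linker histones bind where DNA enters and leaves the particle. Most histone mRNAs that are made with replication end in a stem-loop and lack a poly(A) tail, whereas both droplet methods capture polyadenylated RNA. In the limb bud, undifferentiated mesenchyme divides rapidly and cartilage-forming cells slow down as they mature.

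After the study's limits on unique molecular identifiers (UMIs, which let amplified copies of a transcript be counted once) and mitochondrial share were applied again, the HH25 library kept 5788 of 5982 cells, the HH29 library 6806 of 6823 and the HH31 library 4583 of 4823. They held 13514494, 23846769 and 12867077 UMIs, with medians of 2064, 2946 and 2520 per cell. Doublets were not removed beyond the upper UMI limit. The HH25 and HH31 tables shared 48 cell barcodes, and the HH29 replicates shared 6. Populations are the study's own sub-clusters, of which HH25 has 8, HH29 has 18 and HH31 has 11. Marker genes met their labels in skin (*COL17A1* highest in the skin of each library), late chondrocytes (*COL9A1*), distal mesenchyme (*TFAP2B*), endothelium (*CDH5*) and HH25 blood (*HBAA*). Other markers did not all do so. *MSX2*, also a distal marker, was highest in the apical ectodermal ridge at HH25 (847 CPM, against 182 CPM in distal mesenchyme). *SOX9*, a skeletal marker, was highest in early chondrocytes at HH29. *HBAA* was highest in interdigit sub-cluster 2 at HH29 (2299 CPM) and in sub-cluster 7 at HH31 (605 CPM). The 4 muscle markers could not be checked. HH31 sub-cluster 6 is called by its number, because the limb mesenchyme gene *PRRX1* was highest there (1836 CPM), against the skin label given by the study.

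Levels are CPM, the UMIs that a gene would have if its population held 1000000 UMIs in all. A difference is the log2 ratio of CPM with an exact 95% interval that covers counting error only. With 1 library per stage there are no replicates and no test was run. A lower CPM can mean fewer cells with a transcript or fewer transcripts per cell, which these sums do not tell apart. A gene with at least 50 UMIs over both populations is counted as higher or lower when it passed a 1.5-fold difference. The share of all tested genes that passed stands beside the main counts of members. Counts of highest and lowest levels, counts shared between stages and counts of profiles like that of *PCNA* have no such share beside them. Nor do signs in technical replicates and most counts under other settings.

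All 32 genes were detected in every library. *PCNA* (ENSGALG00000029292), the clamp, had 477, 566 and 265 CPM over all cells of HH25, HH29 and HH31. The linker histone *HIST1H103* (ENSGALG00000037167) had 941, 1747 and 580 CPM, and the H3 gene *HIST2H3PS2* had 2260, 2929 and 2497 CPM, the highest level of the 32 in each library. The other linker histones differed in which library held them. *HIST1H111L* (ENSGALG00000011783) had 46, 1571 and 40 UMIs in the 3 libraries, while *HISTH1* (ENSGALG00000011747) had 3376, 1548 and 1958 UMIs. Linker histone genes have near-identical copies between which reads may be split, so the level of each one is uncertain. The lowest machinery genes were *MCM10*, which helps to activate the helicase, with 26.0, 48.6 and 10.1 CPM, and *ORC1*, the largest subunit of the origin recognition complex, with 30, 49.4 and 12.4 CPM.

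**Figure D1:**
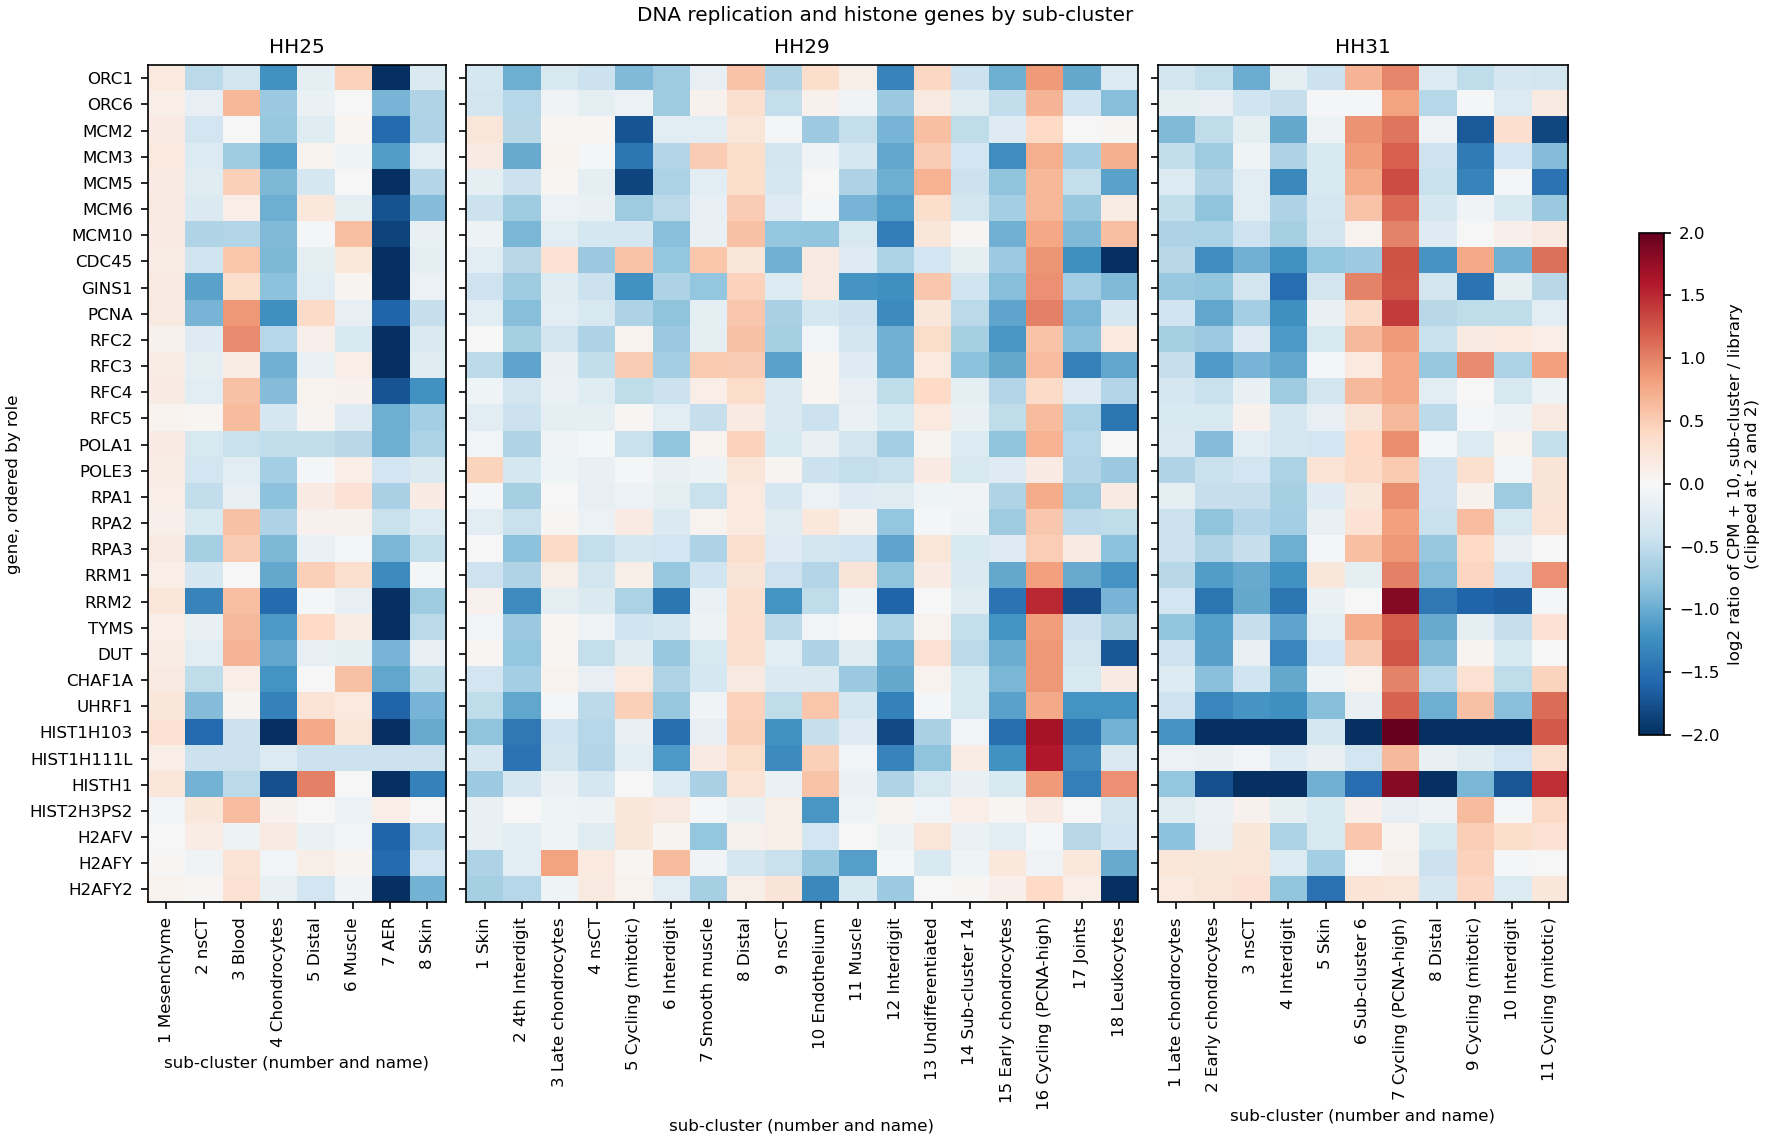
Level of each member (rows, grouped by role) in every sub-cluster (columns, by library), as the log2 ratio of CPM + 10 in the sub-cluster over CPM + 10 in the whole library, with colours limited to −2 and 2. Sub-cluster 16 at HH29 and sub-cluster 7 at HH31 stand out as columns in which most machinery genes are high.

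The sub-clusters with the highest and lowest level of each member were counted, without a share of all genes to set these counts against. At HH29, sub-cluster 16 had the highest level of 23 of the 32 members, and at HH31 sub-cluster 7 had the highest level of 27. At HH25 the study kept proliferating mesenchyme as 1 sub-cluster of 3972 cells. The highest level at HH25 lay in the blood, a small sub-cluster of 138 cells, for 17 members. It lay in the mesenchyme or the distal mesenchyme for 5 each, in muscle for 4 and in chondrocytes for 1. The lowest level lay in the apical ectodermal ridge (AER, the rim of thickened ectoderm at the limb tip) for 24 members, but this sub-cluster held only 22 cells, and *PCNA* there had 8 UMIs. Counting intervals of sub-clusters that are neighbours in the order of levels overlapped for most members. For *PCNA*, the neighbouring pairs that overlapped were 4 of 7 (HH25), 14 of 17 (HH29) and 8 of 10 (HH31).

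*PCNA* itself ranged at HH25 from 151 CPM in the AER through 199 in chondrocytes, 245 in non-skeletal connective tissue (nsCT), 342 in skin, 423 in muscle, 542 in mesenchyme and 623 in distal mesenchyme to 876 CPM in blood. At HH31 it had 108 CPM in interdigit sub-cluster 4, 124 in early chondrocytes, 161 in nsCT, 178 in distal mesenchyme and 183 in sub-cluster 9. Then followed 184 CPM in interdigit sub-cluster 10, 199 in late chondrocytes, 225 in sub-cluster 11, 239 in skin, 348 in sub-cluster 6 and, highest, 717 CPM in sub-cluster 7. Interdigit sub-cluster 4 and early chondrocytes had the lowest levels at HH31, and the level in sub-cluster 7 was the highest. At HH29 the range was 228 CPM, in interdigit sub-cluster 12, to 1151 CPM, in sub-cluster 16, with the distal mesenchyme second at 829 CPM.

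Within proliferating mesenchyme, sub-cluster 16 at HH29 (627 cells) and sub-cluster 7 at HH31 (631 cells) are called *PCNA*-high here, since *PCNA* was highest there in its library, so its own ratio follows from the name. Sub-cluster 5 at HH29 (577 cells) and sub-clusters 9 and 11 at HH31 (633 cells) are called mitotic, from the sum of 50 mitotic genes. These 50 are the study's mitotic (Green) module without *H2AFZ*. These names are not the study's, which tied HH29 sub-cluster 5 to a mitosis module and sub-cluster 16 to a module of the G2/M transition. The mitotic genes summed to 22865 CPM in *PCNA*-high and 48079 CPM in mitotic cells at HH29 and to 8140 and 20691 CPM at HH31. This comparison asks which replication and histone genes follow *PCNA* and which do not. In the *PCNA*-high cells, 22 of 32 members were higher and 0 lower at HH29, where 8.24% of 6639 genes were higher, and 20 of 31 were higher and 1 lower at HH31, where 5.37% of 5026 genes were higher and 10.5% lower. The median log2 ratio of the members was 0.95 at HH29 and 0.90 at HH31, against 0.01 and −0.08 over all genes. In the same comparisons the 50 mitotic genes had medians of −1.33 and −1.68. Their sign follows from the name, since the mitotic sub-clusters were picked by the sum of these genes. The members that were higher at both stages numbered 19 of the 31 with enough UMIs in both, again without a share of all genes for both stages.

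The largest ratios of single members were those of helicase genes. As sums, origin and helicase genes had log2 ratios of 1.61 at HH29 and 2.03 at HH31, and linker histones 1.82 and 1.45. *MCM2* (ENSGALG00000006037), a subunit of the helicase ring, had 156 CPM in *PCNA*-high and 27.7 CPM in mitotic cells at HH29 (log2 ratio 2.49, 95% interval 2.08 to 2.93), and 179 and 16.7 CPM at HH31 (3.42, 2.90 to 3.99). *MCM5* (ENSGALG00000012546), another ring subunit, had 197 and 26.7 CPM at HH29 (2.89, 2.48 to 3.33) and 210 and 23.2 CPM at HH31 (3.17, 2.73 to 3.65). These were the largest ratios of any member at HH31 and HH29, in that order. *MCM2* in sub-clusters 9 and 11 (18.2 and 15.4 CPM) lay below its level in every other HH31 sub-cluster, the next being interdigit sub-cluster 4 at 34.3 CPM. The same held at HH29, where sub-cluster 5 was lowest for *MCM2* and the next was interdigit sub-cluster 12 at 55.8 CPM. *MCM3* had log2 ratios of 2.61 and 3.07 at HH29 and HH31, *GINS1*, a subunit of the GINS complex, 2.47 and 2.63, and *ORC1* 2.12 and 2.38. *MCM6* followed with 1.45 and 1.68, *MCM10* with 1.32 and 1.36, and *ORC6*, the smallest subunit of the origin complex, with 0.85 and 0.90.

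*CDC45* (ENSGALG00000001616) did not share this pattern, although its protein works in 1 complex with the MCM ring and GINS. It had 103 CPM in *PCNA*-high and 81.5 CPM in mitotic cells at HH29 (log2 ratio 0.34, 0.04 to 0.63), and 84.9 and 66.7 CPM at HH31 (0.35, 0.00 to 0.70). Its interval lay wholly below that of *MCM2*, *MCM3*, *MCM5* and *GINS1* at both stages. In the other sub-clusters of HH31, *CDC45* had only 6.66 to 16.9 CPM, so it was high in *PCNA*-high and mitotic cells alike.

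The clamp and its loader were split in a similar way. *PCNA* had 1151 and 366 CPM at HH29 (1.65, 1.53 to 1.77) and 717 and 207 CPM at HH31 (1.80, 1.63 to 1.96). Among the RFC subunits, *RFC4* had log2 ratios of 0.95 and 0.91, *RFC5* 0.64 and 0.58, and *RFC2* 0.52 and 0.75. *RFC3* was the exception, with 0.12 (−0.16 to 0.40) and −0.14 (−0.59 to 0.31), intervals that included 0 at both stages. *POLA1*, the catalytic subunit of the polymerase that starts new strands, had 1.22 and 1.79. Of the RPA trimer, *RPA1* had 0.96 and 0.86, *RPA3* 0.89 and 0.73, and *RPA2* 0.40 and 0.41. *POLE3*, a small subunit of polymerase epsilon, had 0.20 and 0.26.

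Nucleotide supply split between the partners of 1 enzyme. *RRM2* (ENSGALG00000016442), the small subunit of ribonucleotide reductase, had 537 CPM in *PCNA*-high and 115 CPM in mitotic cells at HH29 (2.23, 2.02 to 2.44) and 342 and 59.1 CPM at HH31 (2.54, 2.25 to 2.83). *RRM1*, the large subunit, had log2 ratios of only 0.74 (0.54 to 0.95) and 0.31 (0.04 to 0.58). The intervals of *RRM2* and *RRM1* did not overlap at either stage. *TYMS*, which makes thymidylate, had 1.37 and 1.21, and *DUT*, which removes dUTP, had 1.14 and 1.27. Of the chromatin-copying genes, *CHAF1A*, the large subunit of the histone chaperone CAF-1, had 0.69 and 0.68 and was higher at both stages. *UHRF1*, which binds newly copied DNA that is methylated on the parental strand, had 0.29 and 0.29 and passed the fold at neither.

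**Figure D2:**
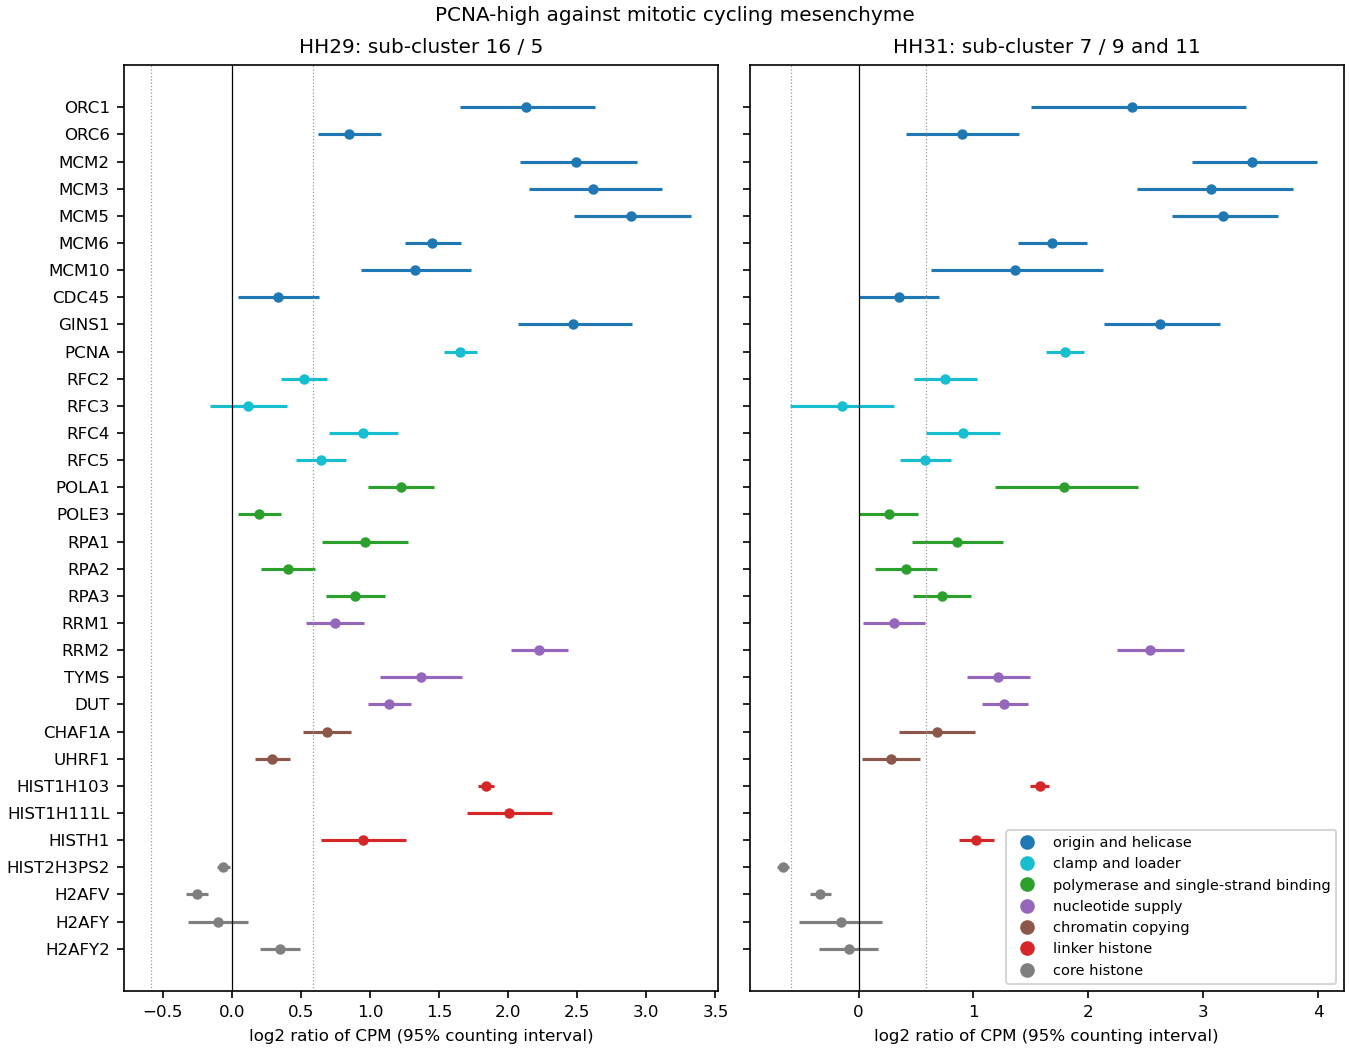
Log2 ratio of CPM, *PCNA*-high over mitotic cycling mesenchyme, for every member by role at HH29 and HH31, with 95% counting intervals and dotted lines at a 1.5-fold difference. *MCM2*, *MCM3*, *MCM5*, *GINS1*, *ORC1* and *RRM2* lie above 2 at both stages, while *CDC45*, *RFC3*, *POLE3*, *RPA2*, *UHRF1* and the core histones lie near 0 or, for *HIST2H3PS2* at HH31, at −0.66.

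The linker histones separated from the 4 core histone members in these cells. Most of these 4 are variants, so they do not stand for core histones as a class. *HIST1H103* had 5570 CPM in *PCNA*-high and 1556 CPM in mitotic cells at HH29 (1.84, 1.78 to 1.90) and 2418 and 812 CPM at HH31 (1.57, 1.49 to 1.66). *HISTH1* had log2 ratios of 0.95 and 1.02 (−0.22 at HH31 in rebuilt clusters), and *HIST1H111L* had 2.0 at HH29, with too few UMIs at HH31 to be counted. Of the core histones, *H2AFV*, an H2A.Z-type variant, had −0.25 and −0.33, *H2AFY* and *H2AFY2*, both macroH2A variants, had −0.10 and 0.35 at HH29 and −0.16 and −0.09 at HH31, and *HIST2H3PS2* had −0.06 and −0.66. None of the 4 was higher at either stage, and *HIST2H3PS2* was the single member that was lower at HH31.

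In the HH29 technical replicates, which share 1 set of sub-clusters, 28 members had a positive and 2 a negative ratio in all 3. The log2 ratio of *PCNA* was 1.63, 1.65 and 1.70, that of *HIST1H103* 1.69, 1.95 and 1.93, and that of *MCM5* 2.94, 2.65 and 3.46 in replicates 1, 2 and 3. They measure technical spread alone. In clusters rebuilt without the members and the other replication genes, 12 of 31 members were higher at HH31, where 4.06% of 5076 genes were higher. No rebuilt cluster matched sub-cluster 16 at HH29. The match was measured by the Jaccard index, the cells shared over the cells in either cluster. It was only 0.30 for HH31 sub-cluster 7, 0.16 for sub-cluster 9 and 0.47 for sub-cluster 11, so the rebuilt populations hold largely different cells.

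Linker histones and machinery genes did not keep 1 ratio across cycling sub-clusters, and a comparison of single sub-clusters, chosen after these levels were seen, shows how far they parted. HH31 sub-clusters 9 and 11 were close in their sum of mitotic genes: the 50 mitotic genes summed to 20119 CPM in sub-cluster 9, against 21148 CPM in sub-cluster 11, and the 25 machinery genes to 1694 and 1879 CPM (log2 ratio −0.15, −0.25 to −0.05). Gene by gene, 13 of the 50 mitotic genes were lower and 4 higher in sub-cluster 9. The 3 linker histones summed to 182 CPM in sub-cluster 9, against 1818 CPM in sub-cluster 11 (−3.32, −3.56 to −3.09). *HIST1H103* had 105 CPM in sub-cluster 9, against 1377 CPM in sub-cluster 11, and *HISTH1* 76.2 and 435 CPM. After each cell was thinned to 1000 UMIs, 7.27% of sub-cluster 9 and 41.3% of sub-cluster 11 had a UMI of *HIST1H103* (19.0% and 57.0% before), with median depths of 2819 and 2843 UMIs. The lowest share at HH31 was 5.21% (14.7% before), in early chondrocytes. A background share from free RNA was not measured, since no cell type known to lack the gene was at hand. Of 24 members with enough UMIs, 3 were lower in sub-cluster 9 (*HIST1H103*, *HISTH1* and *RRM2*) and 1 higher (*MCM6*, log2 ratio 0.77), where 4.18% of 3637 genes were lower and 14.6% higher. In rebuilt clusters, whose match to sub-cluster 9 was poor, the log2 ratio of *RRM2* was 0.94.

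HH31 sub-clusters 6 and 7 had 7200 and 8140 CPM of the mitotic genes in sum, but gene by gene 30 of 46 mitotic genes were lower and 4 higher in sub-cluster 6, with a median of −1.08, against −0.60 for the machinery genes. The machinery summed to 2518 CPM in sub-cluster 6, the second highest at HH31, and 4164 CPM in sub-cluster 7 (−0.73, −0.79 to −0.66), and the linker histones to 157 and 2989 CPM (−4.25, −4.48 to −4.03). Of 31 members, 16 were lower in sub-cluster 6, where 7.89% of 4350 genes were lower. Of the helicase genes, *MCM2* had 159 and 179 CPM (−0.17), *MCM3* −0.41 and *GINS1* 102 and 125 CPM (−0.28), none of them past the fold. *MCM5* (−0.59) and *MCM6* (−0.60) were lower by little more than 1.5-fold. *CDC45*, at 13.8 and 84.9 CPM (−2.62), *RRM2*, at 89.5 and 342 CPM (−1.94), and *HIST1H103*, at 111 and 2418 CPM (−4.45), lay further below sub-cluster 7.

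At HH29 the undifferentiated sub-cluster 13 and the *PCNA*-high sub-cluster 16 were compared in the same way. The machinery summed to 4840 CPM in sub-cluster 13, against 7103 CPM in sub-cluster 16 (−0.55, −0.59 to −0.52), and the linker histones to 1196 and 5915 CPM (−2.31, −2.36 to −2.25). Of 32 members, 14 were lower in sub-cluster 13, where 12.0% of 6916 genes were lower. Of the 50 mitotic genes, 21 were lower and 4 higher there, with a median of −0.46. *MCM2* (0.21), *MCM5* (0.03) and *RFC4* (0.02) had log2 ratios near 0, and *CDC45* (−1.46), *RRM2* (−1.55), *HIST1H103* (−2.32) and *HIST1H111L* (−2.71) had the lowest. Of the 32 members, 27 had a negative and 2 a positive ratio in all 3 technical replicates.

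**Figure D3:**
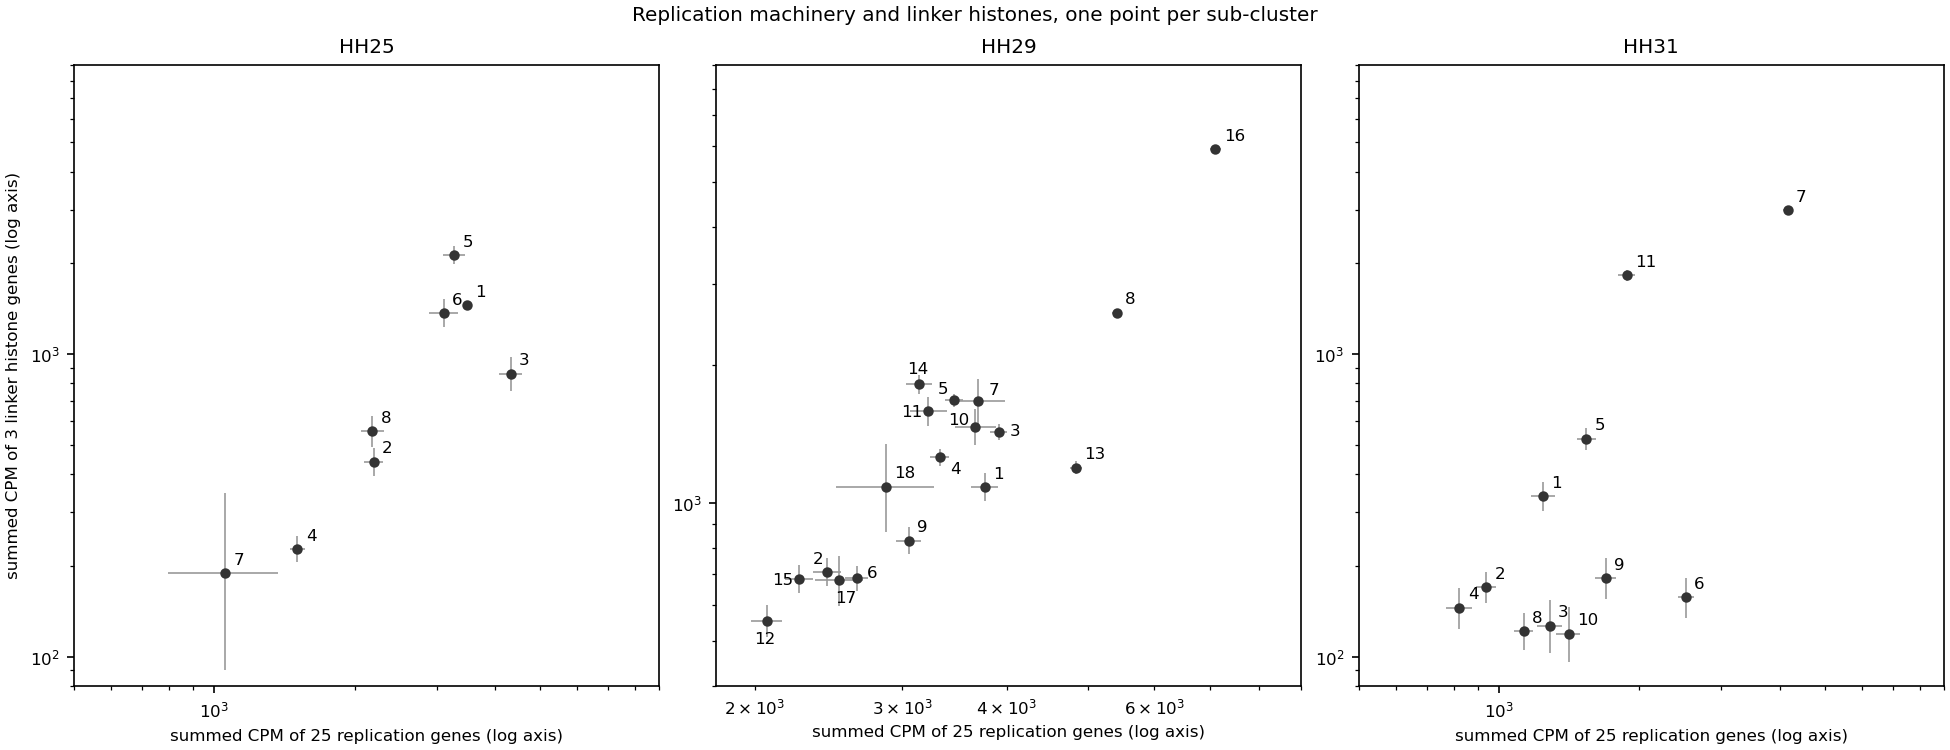
Summed level of the 25 machinery genes (x axis, CPM, log scale) and of the 3 linker histones (y axis, CPM, log scale) in every sub-cluster of each library, with 95% counting intervals as lines and a narrower range of axes for HH29. At HH31, sub-clusters 9 and 11 lie close together along x (1694 and 1879 CPM) and far apart along y (182 and 1818 CPM).

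Per 100 machinery UMIs, linker histones gave 96.8 UMIs in HH31 sub-cluster 11 (95% interval 90.9 to 103), 71.8 in sub-cluster 7, 34.1 in skin, 27.2 in late chondrocytes and 18.1 in early chondrocytes. The value was 10.7 in sub-cluster 9 and in distal mesenchyme, and lowest in sub-cluster 6 at 6.23 (5.31 to 7.28). At HH29 it ranged less, with 83.3 in sub-cluster 16 and 24.7 in sub-cluster 13 as the extremes. At HH25 the highest value was 64.7 in distal mesenchyme and chondrocytes had the lowest.

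Skeletal cells were chondrocytes alone at HH25 and HH31, and at HH29 chondrocytes together with the 118 joint cells. They were compared with proliferating mesenchyme of the same library. This was sub-cluster 1 at HH25, the cycling and undifferentiated sub-clusters 5, 13 and 16 at HH29, and the cycling sub-clusters 7, 9 and 11 at HH31. Most members were lower in skeletal cells. At HH25, 26 of 31 members were lower and 0 higher, where 21.5% of 6893 genes were lower. At HH29, 20 of 32 were lower and 1 higher, where 11.7% of 8410 genes were lower and 11% higher. At HH31, 28 of 31 were lower and 0 higher, where 26.8% of 5967 genes were lower. The HH31 reference holds cycling sub-clusters only, unlike those of HH25 and HH29, and the part of this in the result was not tested. The 25 machinery genes at HH31 summed to 938 CPM in early and 1243 CPM in late chondrocytes. They summed to 822 CPM in interdigit sub-cluster 4, 1130 CPM in distal mesenchyme, 1285 CPM in nsCT and 1540 CPM in skin. The medians of the members were −1.21, −0.66 and −1.47, against −0.19, −0.05 and −0.30 over all genes. The 50 mitotic genes had medians of −1.29, −1.15 and −3.69. At HH29 and HH31 this is partly built in, since sub-clusters 5, 9 and 11 of the reference were named mitotic from the sum of these genes.

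Members that were lower in skeletal cells at all 3 stages numbered 18 of 31, a count without a share of all genes to set it against. *PCNA* had 199 CPM in skeletal cells and 542 CPM in mesenchyme at HH25, 390 and 741 CPM at HH29, and 151 and 451 CPM at HH31. *HIST1H103* had the lowest ratio of any counted member at HH25 and HH31, with 159 and 1148 CPM at HH25 (−2.85, −3.03 to −2.68), 1003 and 2700 CPM at HH29 (−1.43, −1.48 to −1.38), and 174 and 1580 CPM at HH31 (−3.18, −3.33 to −3.05). *RRM2* had log2 ratios of −2.0, −1.30 and −2.25, *ORC1* −2.31, −1.13 and −1.60, and *UHRF1* −1.77, −0.86 and −2.29. Of the clamp loader, *RFC3* had −1.54, −1.09 and −2.63 and *RFC5* −0.42, −0.68 and −0.75. Of the core histones, *HIST2H3PS2* had 0.14, −0.14 and −0.40 and *H2AFY2* had −0.23, −0.17 and −0.05, and neither passed the fold at any stage. *H2AFY* was higher in HH29 skeletal cells, with 255 CPM in skeletal and 154 CPM in mesenchymal cells (0.73, 0.60 to 0.86), and it reached 303 CPM in late chondrocytes, its highest level at HH29.

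Within the skeletal cells, most members were higher in the more mature chondrocytes at HH29. In late against early chondrocytes, 23 of 32 members were higher and 0 lower at HH29, where 13.6% of 5804 genes were higher, with a median of 0.83. At HH31, 8 of 26 members were higher and 1 lower, where 9.31% of 3717 genes were higher and 13% lower, with a median of 0.34. The members higher at both stages were *PCNA*, *RRM1*, *RRM2*, *DUT*, *CHAF1A*, *UHRF1* and *HIST1H103*. *RRM2* had 161 CPM in late and 59.6 CPM in early chondrocytes at HH29 (1.43) and 66.4 and 26.0 CPM at HH31 (1.35). *HIST1H103* had 1321 and 611 CPM at HH29 (1.11) and 251 and 130 CPM at HH31 (0.95). The mitotic genes moved in the same direction. At HH29, 47 of 50 were higher (median 0.98, sums of 17816 and 10217 CPM), and at HH31, 6 of 16 were higher and 1 lower (median 0.51, sums of 2571 and 2285 CPM). Both comparisons depended on which clusters were used. With the rebuilt clusters, 8 of 32 members were higher at HH29 (median 0.37), where 10.4% of all genes were higher. At HH31, 2 of 26 were higher (median −0.08), where 7.37% of all genes were higher, a share near that of the members. Median depth also differed at HH29, with 3404 UMIs in late and 2594.5 in early chondrocytes, and after thinning 13 of the 22 members with enough UMIs left were higher, with a median of 0.84.

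The distal mesenchyme, which lies at the tip of the growing digits, was compared with proliferating mesenchyme in the same way. At HH25 (151 cells), 1 of 31 members was higher and 1 lower, where 19.3% of 6675 genes were lower and 10.1% higher. After thinning, 7 of 31 were lower, where 22.5% of all genes were lower. The shares of members lower were thus near or below those of all genes. At HH29 (1116 cells), 0 of 32 were higher or lower, where 8.21% of 8465 genes were lower. At HH31 (645 cells), 0 of 31 were higher and 27 lower, where 24.4% of 5677 genes were lower. The medians were −0.14, 0.05 and −1.22. The proliferating mesenchyme of HH31 consists of cycling sub-clusters only, which differs from the references at HH25 and HH29, and the part of this in the result was not tested.

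The level relative to all sub-clusters of the library does not use that reference. The 25 machinery genes summed to 3276 CPM in distal mesenchyme at HH25, below only mesenchyme and blood, to 5415 CPM at HH29, below only sub-cluster 16, and to 1130 CPM at HH31, above only early chondrocytes and interdigit sub-cluster 4. The linker histones summed to 2120, 2602 and 121 CPM, and the mitotic genes to 11331, 22128 and 2522 CPM. At HH25 *HISTH1* was the member that was higher, with 515 CPM in distal and 297 CPM in proliferating mesenchyme (0.80, 0.58 to 1.0), followed by *HIST1H103* with 1605 and 1148 CPM (0.48, 0.37 to 0.60). *POLA1*, the member that was lower, had 12 UMIs in distal cells and an interval that ended at 0.00. At HH31 *HIST1H103* had 91.3 CPM in distal and 1580 CPM in cycling mesenchyme (−4.11, −4.36 to −3.88), *HISTH1* 28.2 and 412 CPM (−3.87), *CDC45* 7.35 and 75.4 CPM (−3.36) and *RRM2* 27.0 and 195 CPM (−2.85). *MCM2* differed least among the machinery genes, with 76.0 and 94.1 CPM (−0.31, −0.62 to −0.01).

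Ectoderm (skin, with the AER at HH25) was set against proliferating mesenchyme next. At HH25, 19 of 31 were lower and 0 higher, where 29.2% of 6736 genes were lower. At HH29 (182 skin cells), 14 of 32 were lower and 0 higher, where 21.3% of 7841 genes were lower. At HH31, 26 of 31 were lower and 0 higher, where 38.3% of 5486 genes were lower. The HH31 reference again holds cycling sub-clusters only, and the part of this in the result was not tested. The medians were −0.74, −0.53 and −0.98, against −0.23, −0.11 and −0.40 over all genes. The 10 members lower at all 3 stages were *ORC1*, *ORC6*, *MCM6*, *PCNA*, *RFC3*, *CHAF1A*, *UHRF1*, *HIST1H103*, *HISTH1* and *H2AFY2*. *POLE3* and *HIST2H3PS2* were neither higher nor lower at any stage. Without HH29 replicate 3, 22 of 32 members were lower at HH29, where 23.8% of all genes were lower. *H2AFY2* was the core histone with the lowest ratios, −1.22, −0.87 and −2.06, whereas it passed the fold in skeletal cells at no stage.

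Blood at HH25 held 138 cells and was compared with the mesenchyme after its levels were seen. Of 31 members, 4 were higher and 6 lower, where 16.2% of 6643 genes were higher and 26.0% lower, so neither share of the members exceeded that of all genes. *RFC2*, with 217 CPM in blood and 115 CPM in mesenchyme (0.92), *PCNA*, with 876 and 542 CPM (0.69), *HIST2H3PS2*, with 3461 and 2169 CPM (0.67), and *ORC6*, with 77.1 and 50.1 CPM (0.62), were higher. *MCM3*, with 28.0 and 61.1 CPM (−1.13), *MCM10* (−1.12), *HISTH1* (−0.82), *ORC1* (−0.78), *POLA1* (−0.76) and *HIST1H103* (−0.73) were lower. The machinery as a whole summed to 4326 CPM in blood and 3477 CPM in mesenchyme, and the linker histones to 862 and 1449 CPM.

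**Figure D4:**
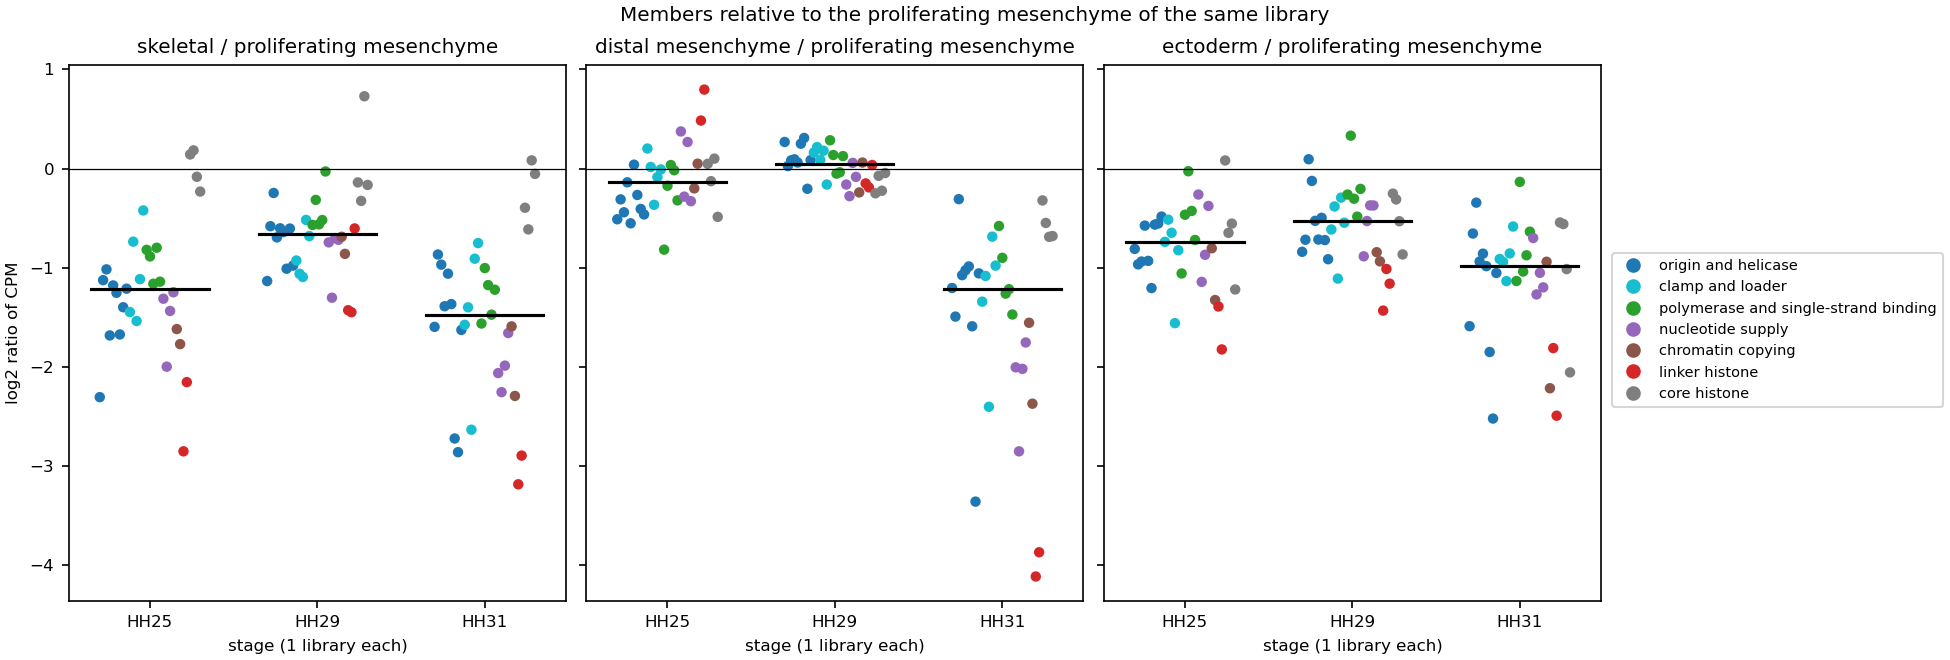
Log2 ratio of CPM of skeletal cells, distal mesenchyme and ectoderm, each over the proliferating mesenchyme of its own library, at HH25, HH29 and HH31, with 1 point per member that had enough UMIs, coloured by role, and a black line at their median. Skeletal cells lie below 0 for the machinery genes and linker histones at each stage, and distal mesenchyme lies near 0 at HH25 and HH29 and below 0 at HH31.

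The S score deposited for each cell, which the study derived from mouse gene pairs, was set against the members, to ask whether cells with a high score carry more replication mRNA. Over all cells, few members passed the fold. At HH25, 0 of 31 members were higher or lower in cells with a score of at least 0.5 (2217 cells) against cells under it (3571 cells), where 2.23% of 7249 genes were higher. At HH29, 1 of 32 was higher (*MCM2*, log2 ratio 0.61) and 0 lower, where 2.42% of 10007 genes were higher. At HH31, 0 of 31 were higher and 2 lower (*RFC3*, −0.90, and *UHRF1*, −0.65), where 2.0% of 7214 genes were higher and 4.2% lower. The medians were 0.00, 0.11 and −0.18. The 50 mitotic genes had medians of −0.82, −0.96 and −1.63. The score was computed from cell cycle genes in these same cells, so this difference is no independent result. Cells with the higher score also held fewer UMIs, with medians of 1752, 2770 and 2452 against 2252, 3408 and 2624, and 818, 599 and 770 cells lay within 0.05 of the limit.

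*PCNA* illustrates this over 4 steps of the score, from under 0.25 to at least 0.75. It had 459, 484, 484 and 492 CPM at HH25, 486, 547, 564 and 616 CPM at HH29, and 275, 278, 254 and 263 CPM at HH31. *MCM5* was higher at each step at HH29, with 83.9, 106, 119.5 and 149 CPM, and *HIST1H103* was lower at each step at HH31, with 711, 685, 515 and 440 CPM. Within proliferating mesenchyme alone, a restriction added after these data were seen, 1 of 31, 5 of 32 and 10 of 31 members were higher in the HH25, HH29 and HH31 libraries, where 1.83%, 3.12% and 3.06% of all genes were higher.

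Cells were also grouped by their own mitotic UMIs, the number of UMIs of the 50 mitotic genes after thinning to 1000 UMIs. Cells with at least 3 were compared with cells that had 0, a rare class of 88, 29 and 500 cells in the HH25, HH29 and HH31 libraries. Of 31 members, 23 were higher at HH25, where 26.6% of 7108 genes were higher. Of 32 members, 23 were higher at HH29, where 14.8% of 9938 genes were higher, but *CDC45*, *ORC1*, *HISTH1*, *HIST1H111L*, *RRM2* and *MCM10* had 0 UMIs in the 29 cells and their ratios are bounds. Of 31 members, 28 were higher at HH31, where 23.8% of 6615 genes were higher. No member was lower in any of the 3. Over all genes, 1104 of 7108, 2286 of 9938 and 328 of 6615 were lower at HH25, HH29 and HH31.

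Over 5 classes of rising mitotic count (0, 1 to 2, 3 to 4, 5 to 9, and 10 or more), the machinery at HH25 summed to 1464, 2018, 2773, 3613 and 3034 CPM. At HH31 it summed to 806, 1125, 1710, 2775 and 2297 CPM, so in both 10x libraries it was highest in the class of 5 to 9 and lower in the cells with most mitotic UMIs. At HH29 the sums were 1424, 1681, 2330, 3427 and 4729 CPM, highest in the class of 10 or more. That open class is not alike between libraries. In the class of 10 or more, the mitotic genes summed to 15507, 27071 and 17611 CPM at HH25, HH29 and HH31. By sub-cluster, the HH29 machinery summed to 3461 CPM in mitotic sub-cluster 5, against 7103 CPM in sub-cluster 16. *MCM5* was highest in the class of 5 to 9 in all 3 libraries, at 176.5, 147 and 144 CPM, against 91.1, 121 and 59.2 CPM in the class above. Linker histones at HH31 summed to 109, 121, 237, 1015 and 1866 CPM and were highest in the cells with most mitotic UMIs. At HH25 they were highest in the class of 5 to 9 (1498 CPM, against 1278 CPM in the class above), as the machinery was. At HH29 they were highest in the class of 10 or more (2663 CPM), again as the machinery was. Linker histones and machinery thus differed in their highest class at HH31 only. Core histones spanned less, with 2900, 2997, 3317, 3632 and 4594 CPM at HH31.

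**Figure D5:**
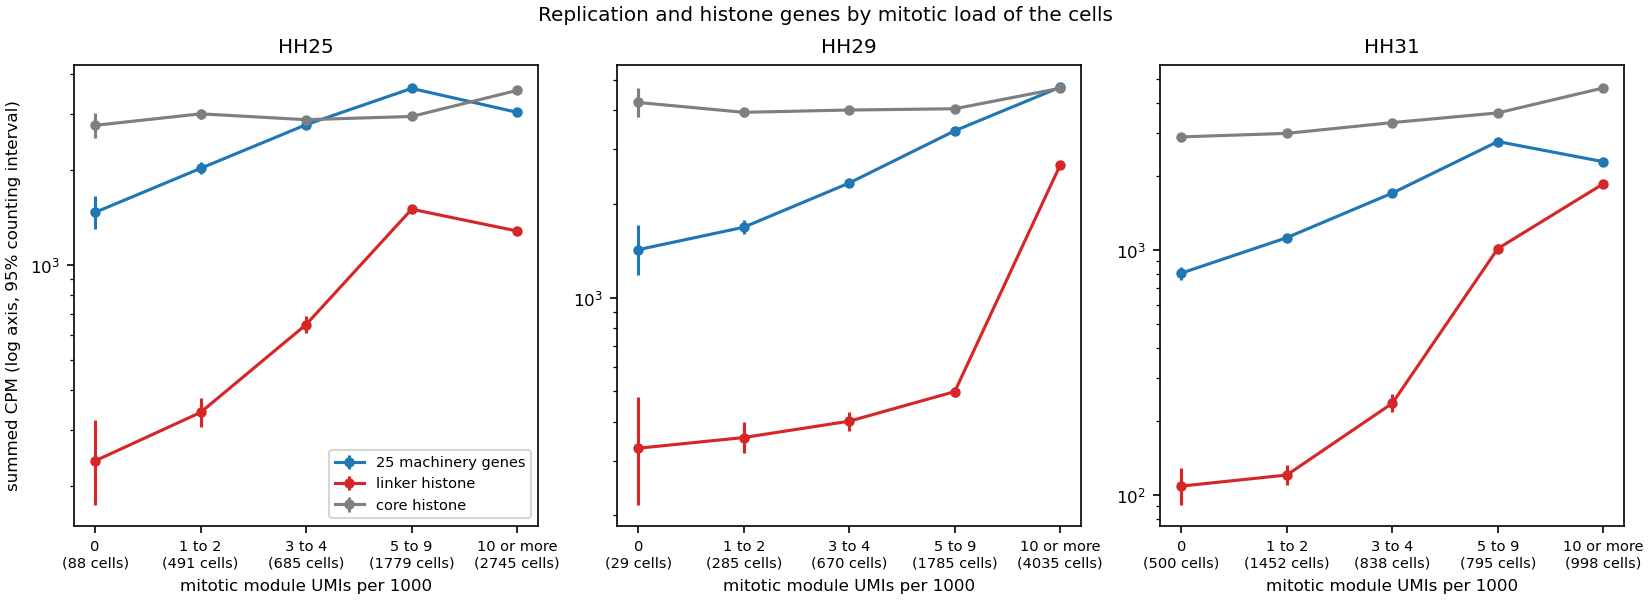
Summed level (CPM, log scale) of the machinery genes, linker histones and core histones by the number of mitotic UMIs per 1000 in a cell, for each library, with 95% counting intervals. The machinery peaks in the class of 5 to 9 at HH25 (3613 CPM) and HH31 (2775 CPM). The linker histones also peak in that class at HH25 (1498 CPM), but at HH31 they reach 1866 CPM in the class of 10 or more.

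As a description, the profile of each member over the sub-clusters of a library was set beside that of *PCNA*, by Pearson's r of log2(CPM + 10) over 8, 18 and 11 sub-clusters, which differ in depth and cell number. For 15 members r was over 0.7 in all 3 libraries. The same r was not computed for other genes, so no share of all genes stands beside this count. *RRM2* was among the most alike, with 0.97 at HH25, 0.92 at HH29 and 0.90 at HH31. *CDC45* had 0.85, 0.46 and 0.63 and *MCM2* 0.83, 0.57 and 0.59, and the 2 members with a value under 0 in some library were the core histones *H2AFY* (−0.18 at HH29) and *HIST2H3PS2* (−0.11 at HH29).

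Of 58 further replication genes, 17 could be matched to an identifier in the study's additional files. Those files list genes enriched in sub-clusters or co-expressed in these same cells. The counts of these 17 against all genes thus describe them and are no independent evidence. In *PCNA*-high against mitotic cells, 9 of 17 were higher and 1 lower at HH29, where 8.24% of 6639 genes were higher and 368 genes lower. At HH31, 7 of 16 were higher and 2 lower, where 5.37% of 5026 genes were higher and 10.5% lower. *SLBP*, which binds the stem-loop of histone mRNA, had the largest ratio, with 263 and 36.7 CPM at HH29 (2.84) and 97.1 and 17.2 CPM at HH31 (2.50). *TK1*, a thymidine kinase (1.22 and 1.56), *PRIM2*, a primase subunit (1.35 and 1.32), *GMNN*, which restrains origin licensing (1.09 and 1.23), *RFC1*, the large subunit of the clamp loader (1.16 and 0.94), and *CLSPN*, a replication checkpoint adaptor (0.98 and 1.03), were higher at both stages. *TOP2A*, the topoisomerase that untangles chromosomes, named here after its values were seen, was lower at both (−0.77 and −1.34). In skeletal cells 0 of these genes were higher and 15 of 17, 10 of 17 and 16 of 16 were lower at HH25, HH29 and HH31. The shares of all genes that were lower were 21.5%, 11.7% and 26.8%.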

How the data were processed

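RNA of single cells was measured in 3 libraries. The authors made the deposited UMI counts with the DropSeq pipeline at HH29 and Cell Ranger 2 at HH25 and HH31, on the Ensembl annotation Gallus_gallus-5.0, and removed cells outside their limits. The S and G2M score of each cell, deposited by the authors, comes from scran, and their sub-clusters from Louvain clustering in Seurat after correction for library size, mitochondrial share and the score difference, a correction that can blur cycling states. Clustering read the members too.

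The study's limits were applied again: at most 4 times the mean UMIs, at least 20% of the median, and at most 10% mitochondrial UMIs (12 genes). The ribosomal limit was not applied. UMIs were summed per population as CPM. Sums carry exact Poisson, ratios exact conditional binomial and shares Clopper-Pearson 95% intervals, all for counting error only. An arm with 0 UMIs took a floor of 3 over the population, so its ratio is a bound, set to 0 where the floor would turn the sign. Shares were read after thinning to 1000 UMIs (seed 11). Every member is named, and at most 6 further replication genes, those past the fold in both cycling comparisons. *TOP2A* was named after its values were seen.

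The members and lists were chosen with earlier results of these data known. Of 23 comparisons, 4 (sub-cluster 9 against 11, 6 against 7, 13 against 16, and blood) were added after seeing the data. Alternatives varied the fold (2), the UMI minimum (1 or 200), centring on the median gene, means over cells, thinning, all barcodes, leaving out each HH29 replicate, score and mitotic limits, and clusters rebuilt with scanpy 1.11.5 without the members and the other replication genes. Ratios and their intervals were run on simulated Poisson counts, to check the calculation. Those counts have no spread between cells beyond counting error, so they do not test how the intervals hold for real cells. Python 3.11.15, numpy 2.4.6, pandas 2.3.3, scipy 1.17.1 and matplotlib 3.10.9 were used. No sequence is shown, since none of a matching build was used here. The study's tables of its own comparisons, which hold fold changes and p-values, gave symbols only. HH29 sub-cluster 14 is called by its number.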

Additional observations from a re-analysis of the deposited data

Results flagged for a closer look

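*HISTH1*, a linker histone, was set apart because its ratio of distal to proliferating mesenchyme took opposite signs at 2 stages: 0.80 at HH25 (515 and 297 CPM) and −3.87 at HH31 (28.2 and 412 CPM). At HH25 it was the 1 of 31 members that was higher, where 10.1% of 6675 genes were higher. At HH29 its log2 ratio lay between −0.06 and 0.13 over the technical replicates. The difference between the stages was not tested, each stage is 1 library, and the proliferating mesenchyme of HH31 consists of cycling sub-clusters only.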

How the results depend on the processing

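No paired analysis between stages was possible, because each stage is 1 library and the labels share no replicates between stages. Within HH29 each sub-cluster has cells in all 3 technical replicates, and ratios per replicate measure technical spread alone. Counts of members past the fold that moved by over 1.5 times were these. At 2-fold, the counts lower were 7 in skeletal cells at HH29, 0 in distal mesenchyme at HH25, 8, 4 and 15 in ectoderm at HH25, HH29 and HH31, 10 in sub-cluster 6 and 5 in sub-cluster 13, and the counts higher 11 and 3 in late chondrocytes at HH29 and HH31, 14 in *PCNA*-high cells at HH29, 0 for the S score at HH29 and 0 in blood. With at least 200 UMIs they were 14 and 3 in late chondrocytes and 10 in sub-cluster 6, and with at least 1 UMI 6 in sub-cluster 9. Centring gave 15 in ectoderm at HH31 and 6 in sub-cluster 9. Means over cells gave 2 in distal mesenchyme at HH25 and 0 for the S score at HH29. Thinning, which left fewer members with enough UMIs, gave 13 of 22 and 4 of 13 in late chondrocytes, 7 in distal mesenchyme at HH25 and 8 in blood. Rebuilt clusters gave 8 and 2 in late chondrocytes, 0 in distal mesenchyme at HH25 and 12 in *PCNA*-high cells at HH31. The rebuilt distal mesenchyme of HH25 held 699 cells and matched the study's at a Jaccard index of only 0.16. At HH31 the index was 0.30 for sub-cluster 7 and 0.16 for sub-cluster 9, so these counts come from largely different cells. For the S score, the counts are of members higher in cells with the higher score. A limit of 0.25 gave 1, 3 and 2 members at HH25, HH29 and HH31. A limit of 0.75 gave 0 at HH29 and 2 at HH31. No share of all genes stands beside the counts at these limits. Proliferating mesenchyme alone, chosen after seeing the data, gave 1, 5 and 10.

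Leaving out each HH29 replicate gave 16 to 24 in skeletal cells, 20 to 24 in late chondrocytes, 0 in distal mesenchyme, 12 to 22 in ectoderm (22 without replicate 3), 21 to 22 in *PCNA*-high cells, 0 to 2 for the S score (0 without replicate 1, 2 without replicate 3), 20 to 22 for mitotic UMIs and 13 to 16 in sub-cluster 13. The count for skeletal cells at HH25 and HH31 stayed within 1.5 times under every alternative run, as did distal mesenchyme at HH29 and HH31 and the 3 counts by mitotic UMIs.

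Single genes changed sign 7 times. In rebuilt clusters, *HIST1H103* had −0.14 in late chondrocytes at HH31, *HISTH1* −0.22 in *PCNA*-high cells at HH31 and *RRM2* 0.94 in sub-cluster 9. *UHRF1* had 0.060 for the S score at HH31 within proliferating mesenchyme. By mitotic UMIs at HH29, *RPA1* had −0.15 and *MCM3* −0.54 after thinning, and *RPA1* −0.041 without replicate 1 and 2.13 without replicate 3. The cause was not tested. Rebuilt clusters could not be used for *PCNA*-high cells at HH29, for sub-cluster 13 against 16 or for sub-cluster 6 against 7, since no rebuilt cluster had HH29 sub-cluster 16 or HH31 sub-cluster 6 as its best match. Depth limits the lowest members (*HIST1H111L*, *MCM10*, *ORC1*) and the 29 HH29 cells with 0 mitotic UMIs. It also limits populations under 200 cells, among them the AER, blood and distal mesenchyme at HH25 and the skin at HH29.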

Other observations

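Sub-clusters outside the comparisons spanned a wide range of member levels. At HH29 the 25 machinery genes summed to 3671 CPM in endothelium (63 cells), 3695 CPM in smooth muscle (31 cells), 3224 CPM in muscle (105 cells) and 2869 CPM in leukocytes (22 cells). *UHRF1*, which takes part in keeping DNA methylation, reached 461 CPM in endothelium, second to 534 CPM in sub-cluster 16, while *HIST2H3PS2* was lowest there, at 1302 CPM. Leukocytes had 0 UMIs of *CDC45* and the lowest level of *H2AFY2*, 26.2 CPM, which rests on 2 UMIs.

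In the interdigit, the tissue between digits, the machinery genes summed to 2066, 2440 and 2648 CPM in sub-clusters 12, 2 and 6 at HH29 and to 822 and 1409 CPM in sub-clusters 4 and 10 at HH31. Non-skeletal connective tissue had 2199 CPM at HH25, 3056 and 3326 CPM in sub-clusters 9 and 4 at HH29, and 1285 CPM at HH31. HH29 sub-cluster 14 had 57.7 linker UMIs per 100 machinery UMIs, second in that library to sub-cluster 16, at a machinery sum of 3145 CPM.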
